A study of Brassica oleracea var. italica with 2 samples.

Results

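The miRNAs described here are miR158, miR161 and miR400 of broccoli (Brassica oleracea var. italica), which in Arabidopsis are known or predicted to act on mRNAs of pentatricopeptide repeat (PPR) proteins. Members were all records in the deposited table of known plant miRNAs named miR158, miR161 or miR400, with any species prefix, letter or star. There were 13 such records of 1400, and 2 of the 13 held read counts, of 169 counted records in all. The counted records were ath-miR400 and aly-miR161.1. None of the 5 miR158 records held a count. A record with no count was not thereby shown to have no reads, so miR158 has no level in what follows.

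Small RNA was sequenced from shoot apexes of heat-tolerant (HT, CNE plants with high curd-forming capacity) and heat-sensitive (HS, CNL plants with low curd-forming capacity) lines described as isogenic. Each genotype had 1 library, from plants 54 days old by the sample labels and kept at 22 °C with 18 h of light and 6 h of dark. Both groups had the same growth regime, and the study regards 22 °C as a high temperature for head formation in these plants. How many plants entered a library was not given in the sources used here, and other ages appear in the study's text. Every test below therefore compares 2 libraries, not the genotypes, and no difference has a replicate check within these data. The study measured some other miRNAs again by qRT-PCR with replicates, among them miR156b, miR172d, miR395a and miR827*. It reports no such measurement of miR158, miR161 or miR400.

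PPR proteins are a large family in land plants that bind RNA in mitochondria and chloroplasts, where they take part in editing, splicing and stability of organelle transcripts. In Arabidopsis, miR161 and miR400 guide cleavage of mRNAs of 1 group of PPR genes, and the cleaved mRNAs can enter the pathway that makes secondary siRNAs. Arabidopsis miR161 gives overlapping mature miRNAs, miR161.1 and miR161.2, from the same precursor, and Arabidopsis miR400 lies in an intron of a protein-coding gene. Another Arabidopsis miRNA that reaches the same PPR genes through secondary siRNAs, miR173, had 0 records among the 1400 analysed.

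The mature sequences are shown first because they show which records are alike and could share reads. They are written 5′ to 3′ as in the deposited table, with T for U, and capitals mark the seed (bases 2 to 8). Species prefixes name the miRBase entry matched (ath, Arabidopsis thaliana; aly, Arabidopsis lyrata; bna, Brassica napus), not the plant sequenced.
ath-miR400: tATGAGAGtattataagtcac
aly-miR161.1: tTGAAAGTgactacatcaggg
ath-miR161.1: tGAAAGTGactacatcagggt
bna-miR161: tCAATGCActgaaagtgacta
ath-miR158a: tCCCAAATgtagacaaagca
All 13 records matched the B. rapa genome sequence the table gives beside them.

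The counted miR400 record was placed at chr A09, 20013501 to 20013521 on the minus strand of the B. rapa genome, version 1.1. It was 21 nt long, began with T (U in the RNA), and had no difference from its miRBase entry. No other counted record had its seed, but 2 of the 1400 records had it, miR400 included. No other of the 1400 records had the sequence of miR400. Its miRNA* record, aly-miR400*, held no count and was placed on another chromosome (A06, 20494823 to 20494843, plus strand), with at most 11 consecutive bases complementary to miR400. The table thus gave no miRNA* at the miR400 locus.

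The counted miR161 record, aly-miR161.1, was placed at chr A04, 8188509 to 8188529 on the plus strand. It differed from its miRBase entry by G18A (miRBase base, position from 1 at the 5′ end, base in the table). The uncounted ath-miR161.1 record began 1 base further along the same locus (8188510 to 8188530) and shared 20 bases with it. The study lists records of identical sequence with unequal levels, so a count is not tied to 1 exact sequence. The reads counted for aly-miR161.1 therefore cannot be assigned to 1 of these 2 registers. The start of the mature miRNA moves the seed, as the capitals above show. The uncounted miR161.2 sequence was given by 2 records, ath-miR161.2 (T9C from its miRBase entry) and bna-miR161 (no difference), both at A05, 12394725 to 12394745 on the minus strand. Its bases 10 to 21 were identical to bases 1 to 12 of ath-miR161.1, a run of 12 bases, although the table placed these records on different chromosomes. The aly-miR161.2* record lay on the opposite strand of the miR161.2 site, overlapped it by 19 bases and held no count. The remaining miR161 record, aly-miR161.1* at A03, 17009669 to 17009687, had 2 differences from its miRBase entry (A12T and C13A) and no count.

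The 5 uncounted miR158 records came down to 3 distinct sequences. Of these records, 4 began at the same base of chr A05 (21937397, plus strand). They were ath-miR158a (no difference from miRBase) and ath-miR158b (C1T), each 20 nt long, and aly-miR158b and aly-miR158b*, each 19 nt long. The last 2 had the same sequence, although the star in the second name marks the other strand of the duplex. The fifth record, aly-miR158a*, was at A08, 19511732 to 19511752, and differed from its entry by C1A. None of the 11 uncounted records had a sequence that another record held with a count (0 of 11). The longest run of bases identical or complementary between any member and any of the other 1387 records of known miRNAs was 11 bases. With the 281 stem-loop records of newly identified miRNA candidates it was 7 bases for any candidate and 10 bases for any candidate precursor.

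The HT library held 27069903 reads and the HS library 26253036, as derived from the counts and the deposited TPM (reads per 1000000 reads of the library). The counted known miRNAs summed to 38431 HT reads and 28582 HS reads, 0.142% and 0.109% of the library. The study assigns many more reads of these libraries to known miRNAs, so this sum covers only a small part of them, and shares of it are shares of the counted records. miRNAs known from the shoot apex (miR164, miR165, miR166, miR390 and miR394) were looked up. All 5 families had counted records, 27 in total, and their summed level was 506 TPM in HT and 470 TPM in HS. No other tissue was sequenced, so their presence does not check the tissue label. By family, the fold change (HT/HS) was 1.29 for miR164, 1.24 for miR165, 0.961 for miR166, 1.49 for miR390 and 1.67 for miR394. Other miRNA groups, chosen as markers of other organs or of sulfate and phosphate starvation, differed more between the libraries. The summed level of miR156 and miR157 was 124 TPM in HT and 50.4 TPM in HS. That of miR172 was 24.1 and 3.31 TPM, and that of miR395 and miR399 was 79.8 and 12.8 TPM. The last sum stands for miR395 only. The miR399 records in it were under the floor, with 0 HT and 2 HS reads (aly-miR399c*), 0 and 1 (osa-miR399k) and 1 and 0 (zma-miR399e*). Some summed records have the same sequence and similar reads, such as smo-miR156b (687 HT reads, 242 HS reads) and ath-miR157a (652 and 242). The same reads may thus enter these sums, and the sum over all counted records, more than once. The part of these groups in the results below was not tested, and in whole apexes fewer cells with a miRNA and less of it per cell cannot be told apart.

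miR400 was the only well-counted member and was lower in HT. The HT library held 16 reads of it (exact Poisson 95% interval 9.15 to 26.0) and the HS library 69 (53.7 to 87.3). These reads gave 0.591 TPM in HT (0.338 to 0.960) and 2.63 TPM in HS (2.04 to 3.33). The intervals of the libraries did not overlap. The fold change (HT/HS) was 0.225 (95% interval 0.122 to 0.392), so that miR400 was 4.45-fold higher in HS (2.55 to 8.21). A two-sided Fisher's exact test of its reads against all other reads of each library gave p = 1.43e-09, and the Benjamini-Hochberg adjusted p over the 169 counted records was 1.05e-08. Reads were amplified by PCR and carried no molecular identifiers, so copies of 1 molecule could be counted more than once. The intervals and p-values take reads as independent, cover counting error only, and may be too narrow even for that.

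**Figure D1:**
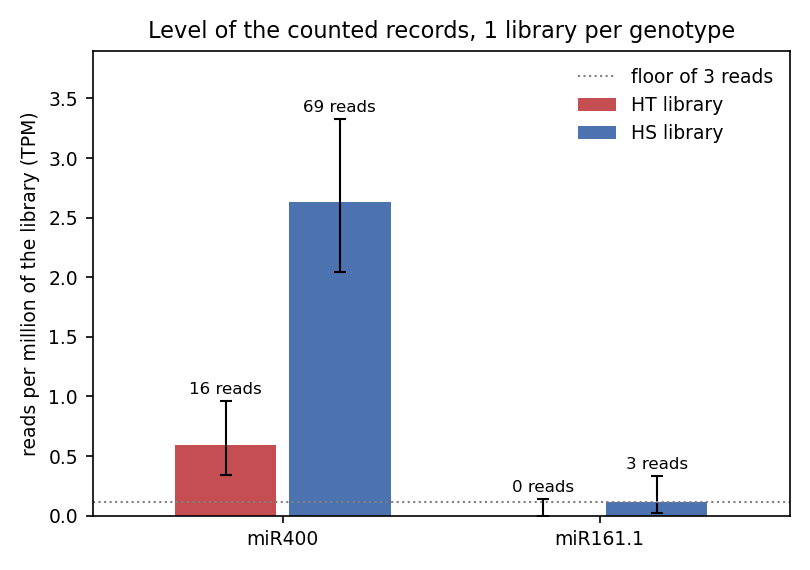
Level of miR400 and miR161.1 in TPM (reads per 1000000 reads of the library) in the HT and HS libraries, 1 library each; bars are the measured level, error bars the exact Poisson 95% interval of counting error, and the dotted line the level of 3 reads. The bars stand for 16 HT and 69 HS reads of miR400 and for 0 HT and 3 HS reads of miR161.1, at or under the dotted line.

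miR161.1 was at the limit of detection in both libraries. It had 0 reads in HT, with an exact Poisson 95% upper limit of 0.136 TPM (the floor of 3 reads is 0.111 TPM). In HS it had 3 reads, or 0.114 TPM (0.0236 to 0.334). Both values were at or under the floor, and no fold change is given. A difference was not detectable at this depth (two-sided Fisher's exact test, p = 0.119, Benjamini-Hochberg adjusted p = 0.301 over 169 records). With 0 reads in HT, a record needed at least 10 reads in HS to reach p under 0.001, and miR161.1 had 3.

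Across the members, HT held 16 summed reads and HS held 72, of which 69 were miR400. The summed level was 0.591 TPM in HT and 2.74 TPM in HS, 4.64-fold higher in HS (95% interval 2.67 to 8.55). The sum therefore repeats miR400.

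A record was called where the fold change was over 2 and the unadjusted Fisher's exact p was under 0.001. By this rule 1 of the 2 counted members, miR400, was called, lower in HT. Over all counted records 21 of 169 were called (12.4%), 14 of them higher in HT (8.28%) and 7 lower (4.14%). A share of 2 members cannot be set against these percentages. With records of identical sequence counted once, 16 of 151 were called, 9 higher in HT and 7 lower. With the sum of the counted reads as library size the split was 9 higher and 9 lower, and the direction and the call of miR400 were as before (fold change 0.172).

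The difference in miR400 was not one that the well-counted miRNAs shared. Among the 94 records with at least 10 reads in both libraries together and a read in each, the median log2 fold change was 0.31, while that of miR400 was -2.15. With other library sizes this median lay between -0.07 and 0.07. Those sizes were taken from the same counted records, so a median near 0 was largely set by them and adds no separate evidence. Of the 69 records with at least 50 reads, only aly-miR827* had a lower fold change than miR400, with 2 HT reads and 65 HS reads. The next was osa-miR398b, with 29 HT reads, 112 HS reads and a fold change of 0.251 (95% interval 0.161 to 0.381), which overlapped that of miR400.

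**Figure D2:**
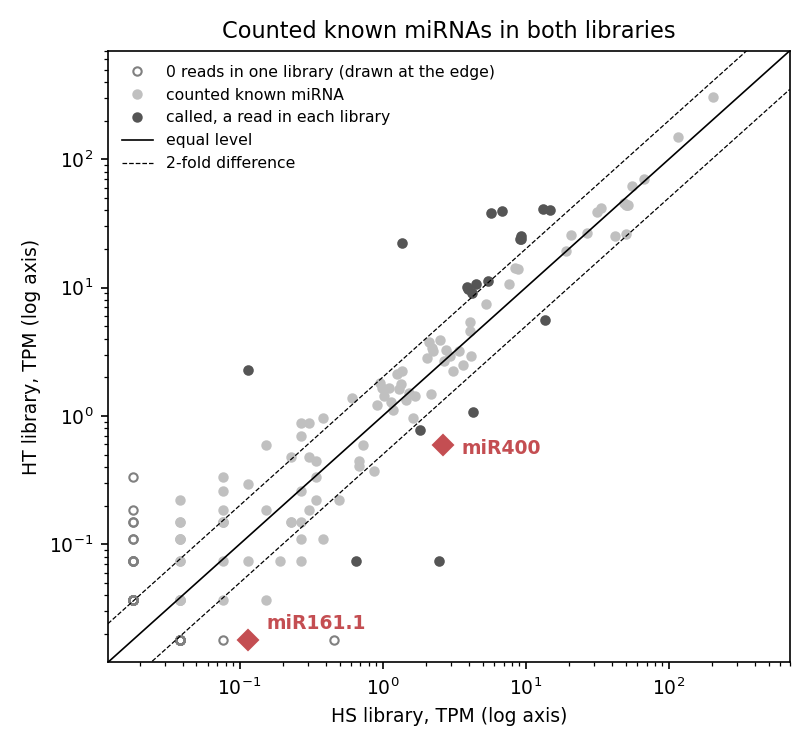
Level of each of the 169 counted known miRNA records in HS (x axis) and HT (y axis), in TPM on log axes; the solid line marks equal level, the dashed lines a 2-fold difference, open circles records with 0 reads in 1 library, and dark points called records. miR400 (diamond) lies below the lower dashed line at 2.63 TPM in HS and 0.591 TPM in HT, and miR161.1 lies at the bottom edge with 0 reads in HT.

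The place of miR400 among the counted records follows from the same reads, so its ranks and shares restate the difference above. It ranked 72 of 169 by level in HT and 43 of 169 in HS, so that 56.5% and 75% of the other records were below it. With the other records held as counted, its counting interval covered 53.0% to 60.7% in HT and 70.8% to 78.0% in HS, so its place within those ranges was not resolved. The counting error of the other records is left out of these ranges. As a share of the counted miRNA reads it made up 0.0416% in HT (exact Clopper-Pearson 95% interval 0.0238% to 0.0676%) and 0.241% in HS (0.188% to 0.305%). miR161.1 shared the lowest rank in HT with the other records at 0 reads, 20 in all. In HS it ranked 97, with 40.5% of the other records below it. Low counts were common in this table, and 58 of the 169 records had 3 or fewer reads in each library.

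Levels most like those of miR400 were sought over the 118 other counted records with a read in each library, by the distance of log2 TPM in the 2 libraries. The nearest was zma-miR166k* (distance 0.65), with 21 HT reads and 48 HS reads. The others were bdi-miR5054 (0.98; 26 and 43 reads), osa-miR398b (1.11; 29 and 112 reads), aly-miR403* (1.35; 40 and 57 reads) and ath-miR171a (1.44; 39 and 44 reads). Their fold changes ran from 0.251 to 0.860, and being near miR400 in both libraries fixed them under 1, so this direction is not a result. The likeness rests on 2 values per record.

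In base composition miR400 stood near the edge of the counted records. Its GC content was 28.6%, against a median of 50% and a range of 23.8% to 80%, and 4 counted records, itself included, were at or under it. In length and first base it was of the common kind, since 98 of the 169 records were 21 nt long and 91 began with T. Few AU-rich records were well counted. With at least 10 reads, 5 records had a GC content of 40% or less, and 3 of them (miR400, aly-miR827* and vvi-miR3630*) were over 2-fold lower in HT, against 8 of the 90 records with more GC (11 of 95 in all, 11.6%). Of these 3, vvi-miR3630* had 10 HT reads and 23 HS reads and was not called (Fisher's exact p = 0.0227), so 2 of the 5 were called, miR400 among them, against 5 of the 90. The other 2, osa-miR5083 and aly-miR403*, had fold changes of 0.593 and 0.681, also under 1. The limit of 40% was chosen with the data in hand, and the part of base composition in the miR400 result was not tested.

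miR158, miR161 and miR400 are known mainly from Brassicaceae, and a list of other miRNA families known from few plant lineages (miR163, miR173, miR391, miR447, miR771 to miR783, miR822 to miR826 and miR829 to miR870) gave a frame for miR400. Some of its families, such as miR858, are found more widely. The list left out other families with numbers in between, among them miR827, whose miRNA* was called lower in HT. The list had 116 records in the table, of which 11 were counted (9.48%), against 15.4% of the records of miR158, miR161 and miR400 and 12.1% of all records. Of the 11, 2 were called lower in HT and 0 higher, beside 7 of 169 lower (4.14%) and 14 of 169 higher (8.28%) over all records. The 2 called records were miR391 and its miRNA*, from 1 family. Of the 11 records, 8 had a fold change under 1 and 3 over 1, beside 69 under 1 and 100 over 1 over all records, and 4 of the 11 had 1 read in total. The median log2 fold change was -0.49 over the 5 records with at least 10 reads and a read in each library, beside 0.31 over all 94 such records.

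The list held 6 records with at least 10 reads. miR391, a relative of the tasiRNA trigger miR390, was low in HT. Its reads numbered 2 for HT and 17 for HS, a fold change of 0.114 (95% interval 0.0128 to 0.481, Fisher's exact p = 0.000337). Its miRNA* was read 0 times from the HT library and 12 times from the HS library (Fisher's exact p = 0.000203). With HT set at the floor of 3 reads of its library and the HS reads as counted, it was 4.12-fold higher in HS, which is not a lower limit. The exact 95% interval of its fold change (HT/HS) reached up to 0.349. miR824, which targets the MADS-box mRNA AGL16 in Arabidopsis, had 724 HT reads and 706 HS reads, a fold change of 0.995 (0.895 to 1.105). Its miRNA* had 80 and 109 reads, a fold change of 0.712 (0.527 to 0.959), which was not called. miR858, which targets MYB mRNAs of flavonoid synthesis in Arabidopsis, had 8 and 3 reads, and its miRNA* had 6 and 13, and neither was called.

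The difference between these ratios and that of miR400 was tested directly, with Fisher's exact test of miR400 reads against the reads of each of the 168 other counted records. By this exact test the HT share was lower for miR400 than for miR824 (p = 4.80e-09, adjusted over the 168 tests 2.24e-08), miR824* (p = 0.000126, adjusted 0.000331) and miR858 (p = 0.000537, adjusted 0.00125). By the same exact test it was not told apart from those of miR391 (p = 0.516, adjusted 0.602), miR391* (p = 0.207, adjusted 0.267) and miR858* (p = 0.226, adjusted 0.284). For these last records the counts were at most 19 reads in both libraries together, and a p above the threshold does not show that the ratios were equal.

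**Figure D3:**
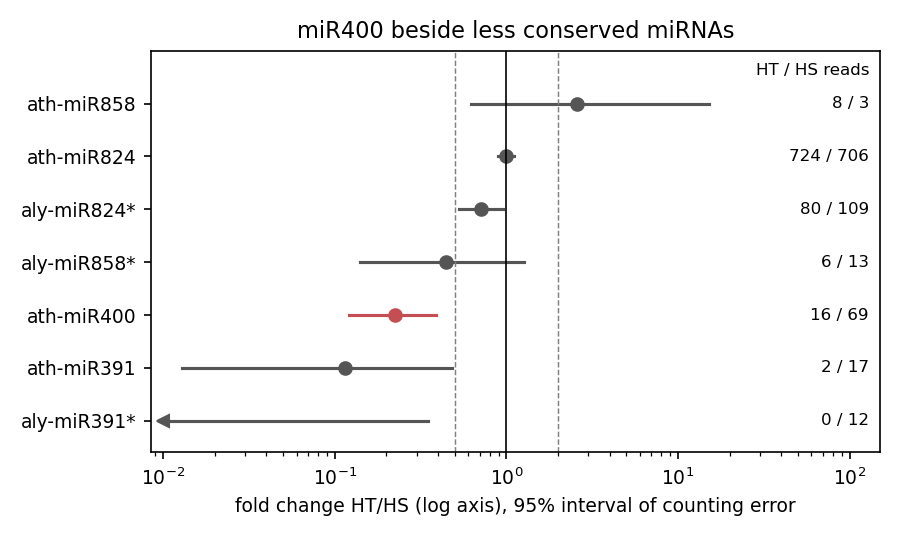
Fold change (HT/HS, log axis) of miR400 (red) and of the 6 records of the less conserved list with at least 10 reads; points are the measured fold change, lines the exact 95% interval of counting error, and dashed lines a 2-fold difference. The reads in HT and HS stand at the right, and the arrow marks aly-miR391* with 0 reads in HT; the miR400 interval, 0.122 to 0.392, lies below the lower dashed line.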

How the data were processed

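The authors sequenced small RNA of 18 to 30 nt by size selection, removed adaptors, low-quality reads and reads under 16 nt or over 31 nt, discarded other non-coding RNA and matched the rest to plant miRNAs of miRBase by BLASTN with under 2 mismatches. Among the members, aly-miR161.1* and aly-miR161.2* each had 2 differences from their miRBase entries, more than that limit allows. The table header, the authors' notes and the methods name releases 18, 19 and 21. The deposited raw counts are whole reads per record and library, and the deposited TPM are those counts per 1000000 reads. Quoted line breaks split the records of the deposited tables, so the limits of both units were checked with a reader that joins them. The authors' fold changes and p-values are in the tables and were not used. Starts in the known-miRNA table were 1 lower than in the candidate tables for the miRNA found in 3 candidate stem-loops, so 1 was added to each start.

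Library sizes came from counts and TPM. With 1 library per genotype no dispersion was estimated, and member reads were set against the rest of the library by Fisher's exact test, two-sided (scipy 1.17.1, Python 3.11.15), called at a fold change over 2 and p under 0.001. Fold intervals were 95% intervals from the exact Clopper-Pearson limits of the HT share. The procedure was run on simulated Poisson reads with no added spread between libraries and with changes only in records of at least 50 reads. That is the model the test assumes, so the simulation does not cover variation between plants or changes in records with few reads. Named records were all members, the 5 records nearest to miR400, and less conserved records with at least 10 reads. Those named for low fold change or low GC content were chosen after their values were seen. The members and lists were chosen with earlier results of these data known. Alternatives changed the library size, thresholds, minimum reads, pseudocount and the counting of miRNA* and identical records.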

Additional observations from a re-analysis of the deposited data

How the results depend on the processing

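The fold change of miR400 stayed under 1 and called under every alternative tried, but few of them could have changed the call. Mature records only and identical sequences counted once left its reads unchanged, and the pseudocount kept the p of the main test. The fold change was 0.172 with the sum of the counted reads as library size, 0.181 with the median of ratios, 0.190 with a trimmed mean of log2 ratios and 0.236 with a pseudocount of 1 read. The 3 other library sizes shifted all log2 fold changes by -0.38, -0.32 and -0.24, in that order, which moved miR400 away from the threshold. The miR161 p lay between 0.0776 and 0.119 and never passed. No alternative could be run for miR158, which has no counted record. Of all counted records 21 were called, against 10 at a fold change threshold of 3 and 16 of 151 with identical sequences counted once. The share of other records below miR400 was 52.1% in HT and 70.1% in HS with mature records only, and 78% in HS with identical sequences counted once. No paired analysis was possible because each genotype has 1 library. Depth limits miR161.1, since at 0 reads in HT fewer than 10 reads in HS cannot be called, and no value here covers variation between plants.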
